A study of Mus musculus with 6 samples.

Results

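White-only regions were stretches of open chromatin with an ATAC-seq peak in each of the 2 white adipocyte libraries but without a peak in any of the 4 beige and brown ones. They were chosen by peak presence alone, after overlapping and touching peaks of all 6 libraries had been joined into merged regions. This rule kept 2381 of 194496 merged regions, or 1.22%. The same rule gave 3781 beige-only regions (1.94%) and 1707 brown-only regions (0.878%). Because the peak calls selected these regions, their presence in white and absence elsewhere is a description and was not tested.

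All cells came from the stromal vascular fraction (SVF), the non-adipocyte cells of fat tissue, of male C57BL/6J mice aged 3 to 4 weeks, and were harvested after 7 days of differentiation. The 2 white libraries were made from inguinal SVF induced with 1 μM dexamethasone, 0.5 mM isobutylmethylxanthine (IBMX) and 5 μg/ml insulin. The 2 beige libraries were made from inguinal SVF and the 2 brown libraries from brown fat SVF, both induced with 5 μM dexamethasone, 0.5 mM IBMX, 5 μg/ml insulin, 1 nM T3 and 1 μM rosiglitazone. The medium was changed after 48 h to one with insulin, with T3 and rosiglitazone kept for beige and brown cells. White and beige cells thus differed in several agents at once, and white and brown cells also in depot, so the part of any agent or of the depot cannot be told apart. The cultures carried no transgene according to the labels, and each was a mixed culture that can hold cells other than adipocytes. In such bulk samples, more cells with an open region and a region more open in each cell cannot be told apart.

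ATAC-seq maps DNA that the Tn5 transposase can reach, which in differentiated cells includes active promoters and distal enhancers. Enhancers are bound by transcription factors that recognise short sequence motifs, and much of the difference between related cell types lies in such distal elements. In adipocytes, PPARγ and C/EBP proteins drive differentiation, and rosiglitazone is a ligand of PPARγ. GATA2 and GATA3 are known as factors of preadipocytes that restrain differentiation, whereas AP-1, the dimers of Jun and Fos proteins, binds enhancers in many cell types. Transforming growth factor β (TGF-β) signals through the receptors TGFBR1 and TGFBR2 and is known to restrain the formation of adipocytes.

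The sequences of 9 white-only regions are given first because the positions and motifs described further on can be read in them. Each is the plus strand of mm10, in lower case, and capitals mark a match to the AP-1 motif TGANTCA or to the GATA hexamer AGATAA on either strand, the latter reading TTATCT on the other strand. Neither motif contains the other. Regions over 300 bp are given as a stretch of 300 bp that holds the summit. Of the members ranked by the lower of their 2 within-list percentiles, the second (Zcchc24 intron, chr14:25753149-25753384), the fifth (Ank intron, chr15:27536843-27537097) and the seventh (upstream of Svep1, chr4:58234163-58234412) are shown as strong regions that lay outside promoters. The region downstream of the start of Hmbox1 (chr14:64948936-64949209) shows a promoter member. The 5 regions around Tgfbr1 show the largest group of neighbouring members. They lie at chr4:47345523-47345742, chr4:47345753-47346068 (printed up to 47346052), chr4:47363184-47363447, chr4:47382475-47382666 and chr4:47418265-47418534.
Zcchc24 intron: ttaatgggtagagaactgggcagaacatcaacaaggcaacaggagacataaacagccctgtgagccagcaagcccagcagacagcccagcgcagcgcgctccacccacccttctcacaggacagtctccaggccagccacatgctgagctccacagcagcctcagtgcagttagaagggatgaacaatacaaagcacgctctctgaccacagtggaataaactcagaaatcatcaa
Ank intron: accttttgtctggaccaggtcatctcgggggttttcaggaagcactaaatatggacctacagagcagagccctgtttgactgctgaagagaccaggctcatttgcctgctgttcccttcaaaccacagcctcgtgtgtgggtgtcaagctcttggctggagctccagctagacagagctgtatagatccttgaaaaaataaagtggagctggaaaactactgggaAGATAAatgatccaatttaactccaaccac
Svep1 upstream: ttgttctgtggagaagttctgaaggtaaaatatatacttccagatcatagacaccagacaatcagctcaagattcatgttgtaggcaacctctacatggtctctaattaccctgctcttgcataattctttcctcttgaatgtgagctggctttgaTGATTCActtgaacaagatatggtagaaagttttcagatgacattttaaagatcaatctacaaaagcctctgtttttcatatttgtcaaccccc
Hmbox1 promoter: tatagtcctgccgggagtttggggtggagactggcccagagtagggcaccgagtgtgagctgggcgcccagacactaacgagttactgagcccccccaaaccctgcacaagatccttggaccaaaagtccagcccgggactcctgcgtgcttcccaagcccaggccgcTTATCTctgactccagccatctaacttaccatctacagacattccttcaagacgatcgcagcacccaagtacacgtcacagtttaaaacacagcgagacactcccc
Tgfbr1 upstream, distal: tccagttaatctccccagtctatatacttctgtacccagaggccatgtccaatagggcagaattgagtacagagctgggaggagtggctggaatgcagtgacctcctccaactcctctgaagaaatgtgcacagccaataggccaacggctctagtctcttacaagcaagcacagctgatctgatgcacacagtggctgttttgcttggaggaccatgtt
Tgfbr1 upstream, proximal: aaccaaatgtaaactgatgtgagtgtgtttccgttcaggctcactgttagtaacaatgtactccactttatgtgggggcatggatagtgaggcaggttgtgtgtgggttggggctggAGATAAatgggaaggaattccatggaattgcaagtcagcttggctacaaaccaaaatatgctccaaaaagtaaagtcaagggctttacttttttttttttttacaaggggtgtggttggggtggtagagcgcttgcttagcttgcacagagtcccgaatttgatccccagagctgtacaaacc
Tgfbr1 intron, 5-prime side: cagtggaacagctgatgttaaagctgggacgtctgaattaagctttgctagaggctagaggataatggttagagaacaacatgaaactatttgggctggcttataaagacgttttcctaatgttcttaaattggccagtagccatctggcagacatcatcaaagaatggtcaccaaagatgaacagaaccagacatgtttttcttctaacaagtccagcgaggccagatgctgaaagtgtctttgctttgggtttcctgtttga
Tgfbr1 intron, 3-prime side: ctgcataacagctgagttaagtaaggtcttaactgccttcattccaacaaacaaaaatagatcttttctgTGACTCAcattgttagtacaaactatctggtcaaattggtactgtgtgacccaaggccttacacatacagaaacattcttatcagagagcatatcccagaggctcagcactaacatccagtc
Tgfbr1 downstream: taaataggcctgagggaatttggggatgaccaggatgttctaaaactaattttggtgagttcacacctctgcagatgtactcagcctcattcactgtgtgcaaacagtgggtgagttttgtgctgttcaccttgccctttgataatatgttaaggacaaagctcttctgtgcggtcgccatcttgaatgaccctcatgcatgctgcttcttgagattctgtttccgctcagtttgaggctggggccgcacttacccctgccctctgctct

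The Ank, Hmbox1 and proximal Tgfbr1 sequences held 1 GATA hexamer each, and the Svep1 and the 3-prime Tgfbr1 intron sequences held 1 AP-1 match each. The other 4 sequences held neither. Zcchc24 encodes a zinc finger protein, Ank a pyrophosphate transporter, Svep1 an extracellular matrix protein and Hmbox1 a homeobox transcription factor.

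Each library was deposited as a list of peaks called on its own. The lists held 120473 and 119385 peaks in the white libraries, 118812 and 127490 in the beige and 113861 and 109143 in the brown libraries. Neither reads nor read counts were used here, so the depth behind a peak is unknown from these values. The study's own summary gives more mapped reads for both white libraries than for both beige libraries, and what part depth had in the classes was not tested. Promoters of 9 or 10 of 10 adipocyte marker genes had a peak in every library, against 2 or 3 of 10 macrophage and 0 or 1 of 9 T cell marker genes. Promoter peaks were also listed for 7 or 8 of 10 progenitor, 6 to 8 of 10 smooth muscle, 5 or 6 of 10 endothelial, 5 or 6 of 10 Schwann cell and 3 to 5 of 10 mesothelial marker genes, so the promoter peaks of these lists did not separate the cultures.

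The number of white-only regions was matched by 1 pair of libraries from different cultures. Among the 15 possible pairs of libraries, white 1 with white 2 was the third largest group of regions found in exactly 2 libraries. White 2 and beige 2 alone shared 2386 regions, 5 more than the white pair. The 12 pairs of different cultures held 1168.5 ± 523 regions (mean ± SD), from 552 to 2386, and the white pair held 2.04 times their mean. The lowest value belonged to white 2 with brown 2, and white 1 with beige 2 held 1587. The white pair therefore lay above 11 of the 12 pairs of different cultures and below 1.

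**Figure D1:**
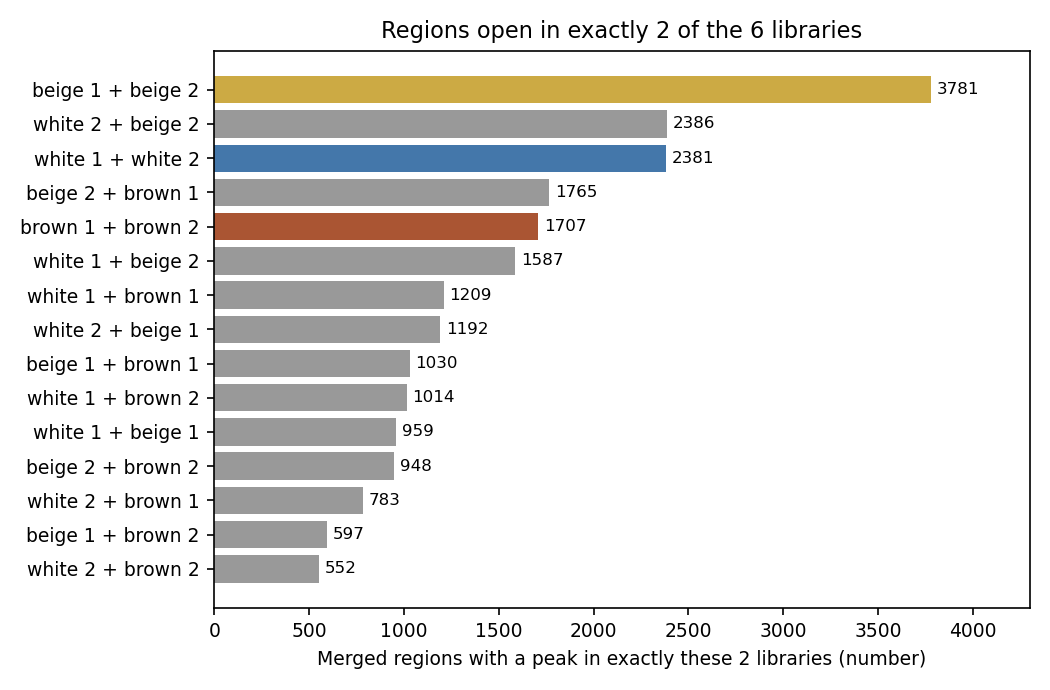
Number of merged regions with a peak in exactly the 2 libraries named, for all 15 pairs. The beige pair (3781) leads, white 2 with beige 2 (2386) and the white pair (2381) follow almost level, and the brown pair has 1707. Grey bars are pairs of different cultures.

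Most merged regions seen in a white library were not white-only. White 1 had 16253 regions in which no other library had a peak, and white 2 had 12399. Just outside the rule were regions with both white peaks and a peak in 1 further library. They numbered 708 with beige 1, 1421 with beige 2, 627 with brown 1 and 376 with brown 2. The peak of that further library had a median −log10 q between 4.38 (brown 2) and 5.81 (beige 2), each within its own list.

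The white peaks of these regions were weak within their own lists. The −log10 q of a peak is MACS2's measure of how significant its enrichment over the background is, and not of its height. Strong and weak refer here to this value, which is not used to rank libraries against each other. Its median in white-only regions was 5.09 in white 1 and 4.87 in white 2, while the whole lists had medians of 9.36 and 9.18. As a rank, the median white-only peak stood at percentile 26.5 of white 1 and 23.3 of white 2, where 100 is the strongest peak of the list. Low ranks were shared by the 12 pairs of different cultures, whose median percentiles ran from 16.5 to 26.5. Only 59 of 2381 regions (2.48%) lay above the 50th percentile in both lists. The median fold over background at the summit was 3.41 and 3.33.

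**Figure D2:**
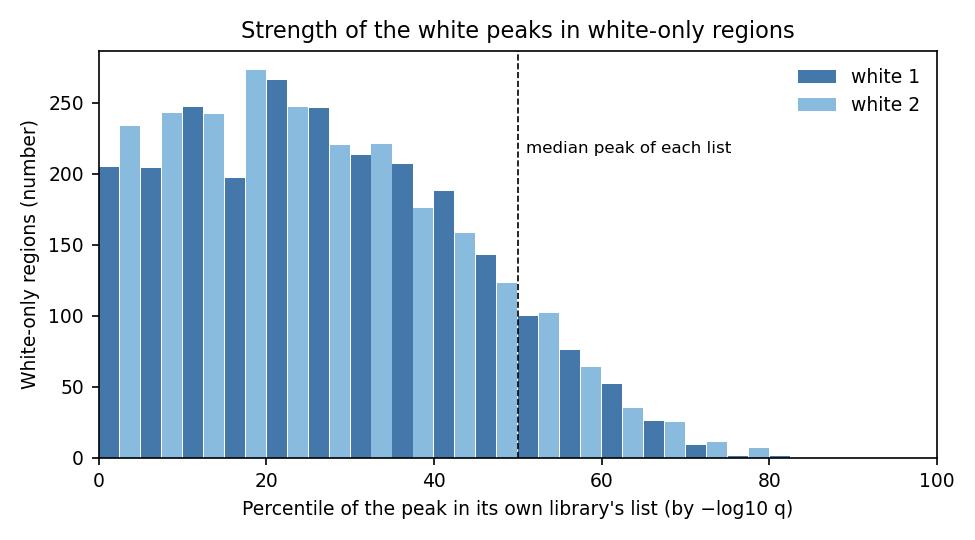
Number of white-only regions by the percentile of their peak among all peaks of the same library, in bins of 5 percentiles, for white 1 and white 2. In both libraries most bars stand left of the dashed line at the list median, and the medians of the members are 26.5 and 23.3.

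The 2 white libraries gave similar positions but different ranks. The summits of the 2 white peaks were a median of 27 bp apart, and 1699 regions (71.4%) had them within 50 bp. In 2305 regions each white library had 1 peak. Across the 2381 regions the percentiles of the 2 libraries had a Spearman rho of 0.246, given as a description over regions that were all chosen for having both peaks. By the lower of their 2 values, 88 regions (3.70%) stayed under a −log10 q of 2, 687 (28.9%) exceeded 5 and 40 exceeded 10. The regions nearest the threshold had a −log10 q of 1.33 in white 1 and 5.10 in white 2 (an intron of Zfp521), 1.37 and 8.69 (a region nearest Palmd) and 1.39 and 3.57 (a region nearest Fam173b).

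The strongest regions were of different kinds. Ranked by the lower of the 2 within-list percentiles, the first was a region 933 bp downstream of a start site of Rasa1 (chr13:85287990-85288214). Rasa1 encodes a GTPase-activating protein of Ras. The region had a −log10 q of 28.5 in white 1, the highest of all members there. In white 2 it had 21.1, where the highest of all members was 24.2. The other 4 libraries had no peak in it. A beige or brown peak ended 32 bp from it. Such a neighbour also stood 52 bp from the region 930 bp inside Zdhhc7, which encodes a palmitoyltransferase, 51 bp from the region 935 bp inside Hs2st1, which encodes a heparan sulfate sulfotransferase, and 105 bp from the region in an intron of Eif2ak3, which encodes the kinase PERK. Of the 10 strongest members, 4 had a beige or brown peak within 110 bp and 6 within 500 bp. The rule thus kept regions directly beside a peak of another culture.

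The strong regions without such a neighbour were distal. The Zcchc24 intron region had a −log10 q of 20.6 in white 1 and 19.9 in white 2, and its nearest beige or brown peak was 2172 bp away. An intron of Asic2, which encodes an acid-sensing ion channel, held a region at chr11:81703423-81703697 with values of 20.3 and 16.6. The Ank intron region had 15.2 in white 1 and 22.5 in white 2. On the X chromosome, a region at chrX:7146253-7146496 nearest to Clcn5, which encodes a chloride transporter of endosomes, had 13.7 and 12.4 and lay 9215 bp from the nearest beige or brown peak. Each of these 4 regions was above the 60th percentile of both white lists.

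Over all members, 677 (28.4%) had a beige or brown peak within 500 bp and 354 (14.9%) within 100 bp. The corresponding share within 500 bp, for a peak of either other culture, was 33.0% in beige-only (31.5 to 34.5, 95% Clopper-Pearson interval) and 18.7% in brown-only regions (16.9 to 20.7). All intervals of shares given here are of this kind and cover counting error only. The median distance of a white-only region to the nearest beige or brown peak was 2226 bp, and 30 members lay over 50 kb from any. Of the 5 regions nearest to Myc, the proto-oncogene, 1 lay 62640 bp from the nearest beige or brown peak and 799114 bp downstream of Myc, with a −log10 q of 18.3 in white 1 and 6.23 in white 2.

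White-only regions were narrow, as were the other classes seen in exactly 2 libraries. Their median width was 241 bp, with the middle 50% between 202 and 302 bp and a range of 150 to 920 bp. Beige-only regions had a median of 222 bp, brown-only regions 256 bp, pairs of different cultures 227 bp and all merged regions 255 bp. Only 45 members (1.89%, 1.38 to 2.52) were 500 bp or wider, against 21.2% of all merged regions, which include those joined from more libraries. The share was 0.635% in beige-only regions, 1.82% in brown-only regions and 0.720% in pairs of different cultures, so narrowness was not particular to white-only regions. The widest, at chr1:58332566-58333485, lay in an intron of the aldehyde oxidase gene Aox2, with a −log10 q of 5.09 in white 1 and 4.87 in white 2. The next widest lay upstream of Gmds (679 bp), far downstream of Galc (668 bp), upstream of Adamts9 (649 bp) and in an intron of Dip2a (620 bp).

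Most white-only regions lay away from promoters. A region was placed by its strongest summit, and a promoter was the 1 kb on each side of a protein-coding transcription start site. Introns held 1035 members (43.5%, 41.5 to 45.5) and intergenic DNA 1126 (47.3%, 45.3 to 49.3). Promoters held 143 (6.01%, 5.09 to 7.04), coding exons 47 and exons outside the coding sequence 30. Among all merged regions 11.6% were at promoters, and among pairs of different cultures 7.20%. Beige-only regions had 6.27% there and brown-only regions 3.93%. The promoter share was 2.35% among the 1704 white-only regions with no beige or brown peak within 500 bp. This filter was not applied to the other classes, so the lower share cannot be called particular to white-only regions.

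The median distance from a white-only summit to the nearest protein-coding start site was 34305 bp, with the middle 50% between 9695 and 104357 bp. It was 26670 bp for beige-only, 47335 bp for brown-only and 33813.5 bp for pairs of different cultures. White-only regions thus lay between the other 2 classes and near the mixed pairs. Distances over 100 kb were found for 616 members (25.9%, 24.1 to 27.7). Repeats made up a mean of 10.9% of the bases within 100 bp of the summit, against 16.1% in beige-only and 10.97% in brown-only regions. The median GC content of these windows was 48.8%, between beige-only (47.3%) and brown-only (49.8%).

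**Figure D3:**
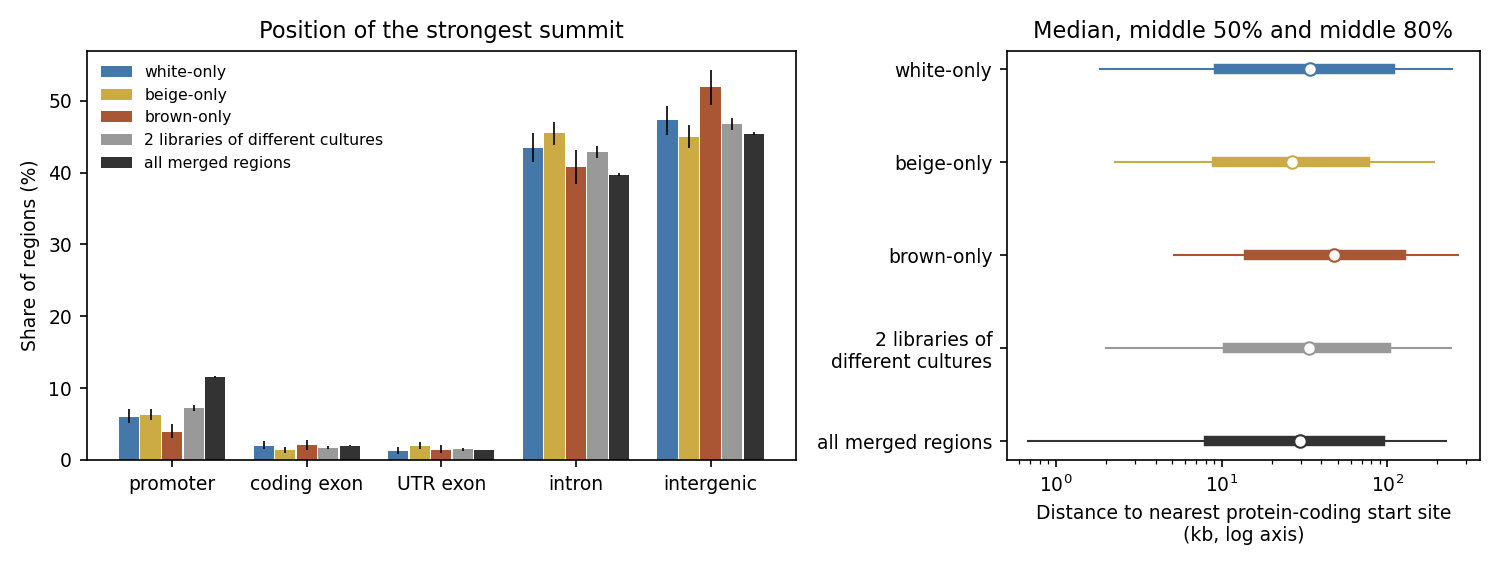
Left, share of regions by the place of the strongest summit, with 95% Clopper-Pearson intervals, for white-only, beige-only and brown-only regions, regions of 2 libraries of different cultures and all merged regions. Right, distance to the nearest protein-coding start site on a log axis, as median (circle), middle 50% (thick line) and middle 80% (thin line). White-only regions have 6.01% at promoters against 11.6% of all regions, and a median distance of 34305 bp.

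The 143 promoter members belonged to 140 genes, and 101 of them lay downstream of the start site. For 93 of these genes (66.4%) a region of all 6 libraries also lay within 1 kb of a start site. A beige or brown peak was within 500 bp of 103 promoter members (72.0%), against 574 of the other members (25.6%). At 23 genes no other merged region was found within 1 kb of a start site. These included Edn3, which encodes endothelin 3 (−log10 q of 4.07 in white 1 and 9.64 in white 2), Bmp8b, a BMP ligand (4.23 and 2.17), and 2 genes used mainly by blood cells, Ptpn6 (4.93 and 2.91) and Nckap1l (3.20 and 3.62). These 4 were named after their values were seen. Their peaks stood at percentiles of 8.85 to 24.8 in white 1 and of 1.63 to 52.0 in white 2, while the macrophage marker promoters above did not separate the cultures.

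Members were spread over all chromosomes. Their share of merged regions was between 1.00% on chromosome 8 and 1.48% on X among chromosomes 1 to 19 and X, and the intervals of these extremes (0.819 to 1.22 and 1.11 to 1.94) overlapped. Chromosome X held 51 members and chromosome Y held 1 of 46 merged regions.

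Some white-only regions were near each other. Within 50 kb of another member lay 382 (16.0%, 14.6 to 17.6), in 182 groups, of which 166 held 2, 15 held 3 and 1 held 5 regions. The corresponding shares were 23.2% for the more numerous beige-only and 13.8% for the less numerous brown-only regions, and such shares rise with the number of regions. Counting both sides of each member, 4760 positions along the chromosome held a neighbouring merged region. At 118 of these (2.48%) the neighbour was white-only, against 1.22% of all merged regions, and a pair of adjacent members counts at 2 positions. Some such pairs lay very close together, as in groups of 2 that spanned 383 bp on chromosome 15 and 393 bp on chromosome 13. How much of the share came from such closely split stretches was not tested. Beige-only regions made up 1.89% of these neighbours and 1.94% of all regions, and brown-only regions 0.861% and 0.878%. These differences were not tested.

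The group of 5 surrounded Tgfbr1, which encodes the type I TGF-β receptor, and spanned 73012 bp (chr4:47345523-47418534). Its most distal upstream region had a −log10 q of 15.8 in white 1 and 5.93 in white 2, and the region next to it 4.78 and 4.25. The distal region ended at 47345742 and the region next to it began at 47345753, so these 2 may be a single open stretch. The intron regions had 6.48 and 4.17 (5-prime side) and 3.20 and 4.29 (3-prime side), and the downstream region had 5.84 and 3.95. No beige or brown library had a peak in any of the 5, and 3 further regions at the gene were found in white 2 alone. The promoter was open in all 6 libraries. In all, 5 of the 14 merged regions nearest to Tgfbr1 were white-only, 0 were beige-only and 0 were brown-only.

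**Figure D4:**
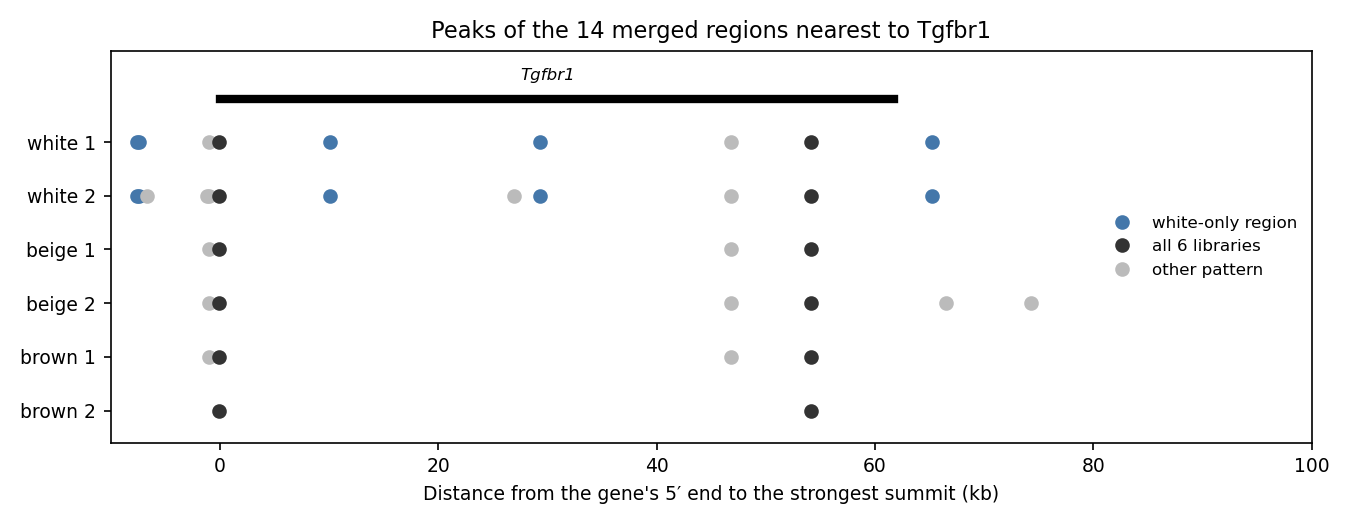
Peaks of the 14 merged regions nearest to Tgfbr1 by distance from the 5′ end of the gene (bar at the top, to scale) and by library. Blue points are the 5 white-only regions, seen in white 1 and white 2 only. Black points are regions of all 6 libraries, and grey points are regions with another pattern, including 3 in white 2 alone and 2 in beige 2 alone.

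The next groups held 3 regions each, and those named were chosen among the groups of 3 for their short span. They lay upstream of Tspear (10732 bp), near Prokr1, which encodes a prokineticin receptor (12127 bp), and in an intron of Auts2 (15018 bp). In each group 2 regions nearly touched and may be a single stretch. These ended and began at 77667499 and 77667508 (Tspear), 87565230 and 87565266 (Prokr1) and 132083914 and 132083920 (Auts2). The Tspear regions had a −log10 q of 5.77, 2.85 and 4.48 in white 1 and 3.04, 4.71 and 2.504 in white 2. None of these 3 spans held a beige-only or brown-only region, and only that near Prokr1 held a region of all 6 libraries.

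White-only regions had a protein-coding neighbour in 1992 of 21851 genes (9.12%). Most of these genes, 1686, were nearest to 1 member, 246 to 2 and 60 to 3 or more. The counts follow the number of open regions around a gene, which had a median of 19 for genes with a member and 5 for all genes. Of the genes with a white-only region, 604 also had a beige-only one, which is 30.3% of the former and 19.5% of the genes with a beige-only region. Over all 21851 genes, 3101 had a beige-only region and 9.12% a white-only one, so the overlap was above these shares. Among the 60 genes with 3 or more members, 26 had neither a beige-only nor a brown-only region. Most of all genes had no beige-only region, and the share with neither was not counted over all genes. The 26 are thus no sign of loci particular to white-only regions.

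Auts2, a gene best known in neurodevelopment, was nearest to 7 members, more than any other gene, among 139 merged regions and with 0 beige-only and 0 brown-only ones. Their −log10 q ran from 2.48 to 8.15 in white 1 and from 1.77 to 5.89 in white 2, so all 7 were weak calls. The 7 include the 2 nearly touching regions named above. Runx1, a Runt transcription factor, had 5 white-only, 2 beige-only and 1 brown-only region among 94. Myc had 5 white-only, 5 beige-only and 2 brown-only regions among 145, so white-only and beige-only regions were equally frequent there. The next 6 genes, ordered by the share of their regions, had 4 members each, namely Dtwd2 (4 of 30), Peli1, a ubiquitin ligase of innate immune signalling (4 of 30), Tmem167 (4 of 34), Frmd4b (4 of 50), Plcl1 (4 of 53) and Daam1, a formin of Wnt planar polarity signalling (4 of 65, tied with Tcp10c). Of these, Peli1 had 2 beige-only regions, Tmem167 had 1 and Frmd4b had 1 brown-only region.

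Among genes of TGF-β and BMP signalling, the share of white-only regions rested in part on Tgfbr1. Of 939 merged regions nearest to the 28 genes of this list, 21 (2.24%, 1.39 to 3.40) were white-only, 13 beige-only and 9 brown-only, and 10 of the 28 genes had a member. Tgfbr1 gave 5 of the 21, including its 2 nearly touching upstream regions. Without Tgfbr1 the share was 16 of 925 (1.73%, 0.992 to 2.79), an interval that holds the background of 1.22%, a setting chosen after seeing the data. Among the receptors, Tgfbr2 and Acvr2a, a type II receptor for activins, had 3 each. The transducers Smad1 and Smad4 had 2 and 1, the inhibitory Smad6 had 1, the ligands Tgfb3 and Bmp2 had 2 each, and the BMP antagonist Nog and the latent TGF-β binding protein Ltbp1 had 1 each. Beige-only regions also lay nearest to Tgfbr2 (1), Acvr2a (2), Tgfb3 (1), Bmp2 (1), Smad6 (1) and Ltbp1 (1). This was the only one of 23 lists whose interval, with Tgfbr1, lay above the background, no test was made over the list, and it was chosen with earlier results of these data known.

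The 3 regions nearest to Tgfbr2 were distal. They lay 59040 and 239884 bp upstream of a start site and, within an intron of Rbms3, 433810 bp upstream. Their −log10 q was 9.78, 6.35 and 4.57 in white 1 and 4.56, 10.6 and 3.62 in white 2.

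No white-only region was nearest to any of 10 adipocyte marker genes. The count was 0 of 135 merged regions, for which a limit of 3 counts, used here in place of an interval for counts of 0, allows a share of up to 2.22%, so a share at the background of 1.22% could not be told from 0. The wider list of 24 adipocyte and lipid genes had 5 of 322 (1.55%, 0.506 to 3.59), 3 of them nearest to Cebpd, which encodes the early adipogenic factor C/EBPδ. Those had a −log10 q of 10.54, 13.2 and 5.09 in white 1 and 11.4, 6.16 and 4.87 in white 2, and all 3 lay within the annotated body of the neighbouring gene Spidr, the second of them in a coding exon and also within the body of Cebpd. The others were nearest to Acly, which makes acetyl-CoA for lipid synthesis, and Cd36, a fatty acid transporter, the latter with 3 beige-only regions as well.

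Other lists were near the background. White-only regions made up 14 of 907 for 30 matrix genes (1.54%, 0.846 to 2.58), with 12 of the 30 genes near a member, among them the collagen genes Col3a1 (2 regions), Col1a2, Col5a1, Col6a1 and Col6a2. For 20 thermogenic genes they made up 5 of 405 (1.23%, 0.402 to 2.86), 2 of them nearest to Ebf2, a factor of brown and beige precursors that also had 1 beige-only and 2 brown-only regions. For 24 progenitor genes the share was 6 of 744 (0.806%, 0.297 to 1.75) and for 16 white fat markers 5 of 372 (1.34%, 0.438 to 3.11). Known targets of the T3 receptor and of PPAR proteins, whose ligands T3 and rosiglitazone were not added to white cells, had 7 of 352 (1.99%, 0.803 to 4.05), with Cpt1a, the carnitine palmitoyltransferase, and Me1, malic enzyme, at 1 of 14 each. Glucocorticoid target genes had 8 of 482 (1.66%, 0.719 to 3.24), 3 of them the regions at Cebpd.

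For the remaining lists the shares were 1.49% (20 of 1344, 0.911 to 2.29) for axon guidance and adhesion genes, of which Efna5, an ephrin, had 4 members, 1.73% (10 of 577) for skeletal genes with Runx1 in the lead, and 1.99% (6 of 301) for AP-1 and Maf family genes, with 3 at Maf. They were 1.69% (6 of 356) for inflammatory genes, 3 of which were nearest to the chemokine gene Cxcl12, 1.10% (8 of 728) for Wnt, 1.03% (8 of 776) for nuclear receptor and 0.794% (3 of 378) for contractile genes. Among the marker lists of other cell types, 3 of 208 regions were white-only at endothelial genes, all nearest to Cdh5, whose promoter had no peak in any library. There were 3 of 247 at progenitor, 1 of 87 at macrophage, 1 of 84 at smooth muscle, 1 of 76 at mesothelial, 1 of 130 at Schwann cell and 0 of 54 at T cell markers, for the last of which the limit of 3 counts allows up to 5.56%.

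The GATA hexamer AGATAA was more frequent in white-only regions than in the other classes. The 23 motifs were searched on both strands within 100 bp of the strongest summit. AGATAA occurred in 287 of 2381 white-only windows (12.1%, 10.8 to 13.4), against 8.04% of all merged regions, 8.75% of beige-only (7.87 to 9.70), 7.56% of brown-only regions (6.35 to 8.91) and 9.09% of pairs of different cultures (8.62 to 9.58). The 1191 stronger members had it in 12.4% and the 1190 weaker in 11.7%. It was found in 13.2% of the 1704 members without a beige or brown peak within 500 bp and in 4.90% of the 143 promoter members. The closer look at this motif was chosen after its share had been seen among the 23, and no test was made.

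Base composition and repeats were compared beside it. In windows under 45% GC, where AT-rich words are more frequent, the GATA share was 19.4% in white-only (16.2 to 22.8), 11.9% in beige-only, 13.1% in brown-only and 13.8% in all merged regions. At 45% GC or more it was 9.68% in members and 6.46% in all regions. In windows with at most 10% repeat bases it was 12.6% and 8.06%. The related word TGATAA was in 8.02% of members (6.96 to 9.19), 7.70% of beige-only, 6.68% of brown-only and 6.16% of all regions and 6.75% of mixed pairs. GGATAA was in 5.71% of members, 5.74% of beige-only, 4.98% of brown-only and 5.03% of all regions. The match stood a median of 52.5 bp from the summit, against 54.5 bp in all regions. It was within 25 bp in 75 of the 287 windows (26.1%), against 22.1% of matching windows among all regions. As the windows reach 100 bp to each side, these medians show no concentration of GATA matches at the summit.

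The other library patterns held part of the same signal. Among the 21 patterns of 1 library alone or exactly 2 libraries, the white pair had the highest GATA share. White 1 with beige 2 followed at 11.2% (9.70 to 12.9), white 2 with beige 1 at 10.9% and white 2 with beige 2 at 10.3%, and the intervals of these 3 overlapped that of the white pair. Regions of white 2 alone had the hexamer in 10.1% and those of white 1 alone in 7.67%, which was below the share of all regions. The patterns of 2 libraries without a white one ran from 5.53% (beige 1 with brown 2) to 9.22% (beige 1 with brown 1). All 5 patterns with a share over 10% included a white library, and 5 of the 11 patterns with a white library lay under 9%.

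**Figure D5:**
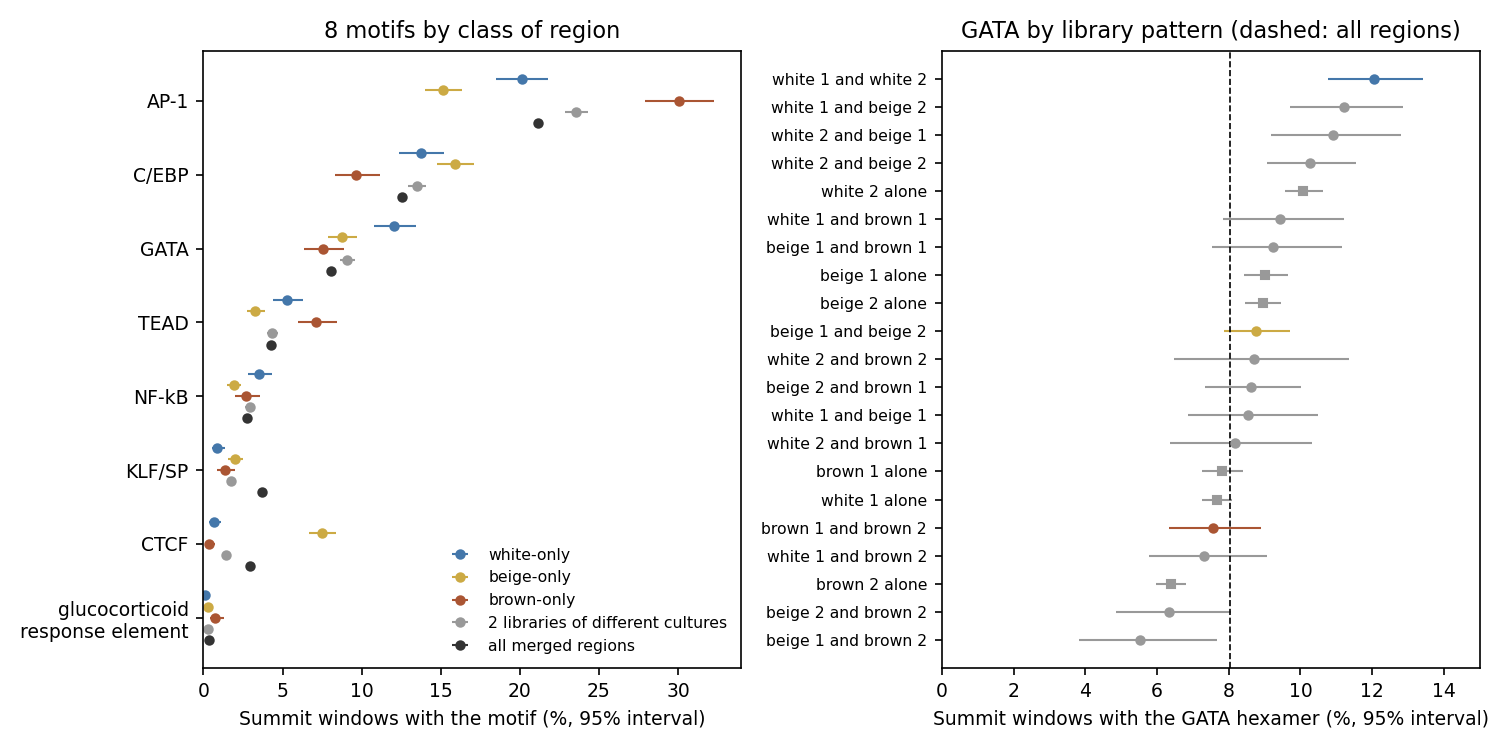
Left, share of windows of 100 bp on each side of the summit that hold each of 8 motifs, by class of region, with 95% Clopper-Pearson intervals. Right, the GATA share for the 6 patterns of 1 library alone (squares) and the 15 patterns of exactly 2 libraries (circles), with the share of all merged regions as a dashed line. The white pair (12.1%) is at the top and white 1 alone (7.67%) lies below the line.

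The AP-1 share of white-only regions was near that of all regions and below that of pairs of different cultures. TGANTCA was found in 479 windows (20.1%, 18.5 to 21.8), against 21.2% of all regions and 23.6% of pairs of different cultures (22.9 to 24.3). The white-only share lay between beige-only (15.2%) and brown-only regions (30.1%). In members with a match the AP-1 motif stood a median of 28 bp from the summit, and within 25 bp in 217 of them (45.3%). This distance was not measured in the other classes. The C/EBP motif TTGCNNAA was in 13.7% (12.4 to 15.2), against 12.6% of all, 15.9% of beige-only and 9.67% of brown-only regions. The TEAD motif GGAATGT was in 5.29% (4.43 to 6.27), against 4.29% of all regions and 4.34% of mixed pairs. It was again between beige-only (3.28%) and brown-only (7.15%). The NF-kB motif, of the inflammatory factors of that name, was in 3.53% (2.82 to 4.35), against 1.90% of beige-only (1.49 to 2.39) and 2.78% of all regions. Brown-only regions had it in 2.69% (1.98 to 3.58) and mixed pairs in 2.93% (2.66 to 3.22), with intervals that overlapped the white-only one.

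Motifs of promoters and of chromatin loops were rare. The motif of CTCF, which holds loop boundaries, was in 16 windows (0.672%, 0.385 to 1.09), against 2.97% of all, 1.398% of mixed pairs and 7.51% of beige-only regions (6.69 to 8.40). Brown-only regions (0.351%) and regions of white 1 (0.381%) or white 2 alone (0.452%) were similarly low, while white 1 or white 2 with beige 2 had 2.65% and 2.51%. Of these patterns the beige pair alone lay above all regions. The KLF/SP motif GGGCGGGG was in 21 windows (0.882%, 0.547 to 1.35), against 3.71% of all and 1.74% of mixed pairs.

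The motifs of the receptors that the media address were scarce in all classes. A full glucocorticoid response element was in 2 white-only windows (0.084%, 0.0102 to 0.303), in 10 beige-only (0.264%) and 13 brown-only windows (0.762%, 0.406 to 1.299), and in 0.329% of all regions. The PPAR motif in its strict DR1 form was in 3 white-only (0.126%), 8 beige-only (0.212%) and 2 brown-only windows (0.117%), counts at which a difference was not detectable. Shares of motifs rest on strict letters, so a window without a match can still bind the factor.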

How the data were processed

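ATAC-seq peak lists of 6 libraries (2 white, 2 beige, 2 brown) were used. The authors aligned reads to mm10 with BWA and called peaks per library with MACS2, per the labels and methods, keeping a q value under 0.05. The deposited fold enrichment is a ratio over the local background of that library, and −log10 q was deposited for every summit, so weak peaks near the threshold can be missed in 1 library and listed in another. Insulin doses are those of the labels, and the methods give others. The brown libraries are not in the paper.

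Intervals with several summits were counted once, at the highest −log10 q. Intervals overlapping by at least 1 bp or touching were merged. Start sites are those of GENCODE M21 basic protein-coding transcripts (mm10), and the sequence is RefSeq's GRCm38. The work used pysam 0.24.0, scipy 1.17.1, pandas 2.3.3 and numpy 2.4.6 in Python 3.11.15. The merging, distance and motif steps were tested on simulated data. Regions were named by rank of the lower within-list percentile, promoter position, width, nearness to the threshold, group size and regions per gene. Some items that these rules select are not reported here. Members and gene lists were chosen with earlier results of these data known. No test was made, because peak presence defined the regions. Whether the 2 libraries of a culture came from separate animals is not in the labels. The study's summary speaks of biological replications for its ATAC-seq, which does not cover the brown libraries. Alternatives were stricter q values, equally long lists, distance to other peaks, peak overlap, other annotation, windows and distances, and leaving out each library.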

Additional observations from a re-analysis of the deposited data

How the results depend on the processing

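The white-only count was 1493 at a q value under 0.00001, and with it the median distance to a start site was 37805 bp, the median width 268 bp, the share near another member 11.99% and the AP-1 share 21.97%. In that setting the white pair ranked 4 of 15 pairs, below white 2 with beige 2 (1799 regions) among others. With lists of equal length the median width was 249 bp, and the white pair (2205) again ranked 3 of 15, above white 2 with beige 2 (1713) and below the brown pair (2225). Without beige or brown peaks within 500 bp, promoters held 2.35%, the median distance was 40459.5 bp, the width 245 bp, the share near another member 12.9% and the AP-1 share 22.01%. With white peaks overlapping by 0.5 of both, the width was 226 bp. Within 3 kb of a start site lay 12.98%, and with all protein-coding transcripts 7.06% were at promoters, at a median distance of 30867 bp. Shares near another member were 27.7% at 100 kb and 4.91% at 10 kb. Windows of 50 and 250 bp on each side held AP-1 in 13.99% and 28.3% and the GATA hexamer in 5.63% and 27.5%, an alternative added, like all those for GATA, after seeing the data. By gene body, 6 of the 10 leading genes were shared, with ties at 4 regions broken by name, and 9 of the 10 were among the 17 genes with at least 4 regions.

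Leaving out a library loosens the rule and so enlarges the class. The count ran from 2771 (without brown 2) to 18954 (without white 2), with 15192 without white 1, 3912 without beige 2, 3118 without beige 1 and 3027 without brown 1. Over these 6 settings, promoters held 4.15% to 9.34%, the median distance was 33585.5 to 36502.5 bp, the median width 164 to 243 bp, the share near another member 18.8% to 63.4%, the AP-1 share 12.9% to 23.3% and the GATA share 8.24% to 11.99%. Without either white library the remaining regions were mostly those of 1 library alone. No paired analysis was possible because peak presence was described and never tested. The limits are 2 libraries per culture, no read counts, so that absence of a peak is not absence of signal, and peaks of low rank in most members.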
